A study of Mus musculus with 6 samples.

Results

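The genes described here are 10 brakes on mitogen-activated protein (MAP) kinase signalling: the dual-specificity phosphatases Dusp1, Dusp2, Dusp4, Dusp5, Dusp6, Dusp7, Dusp10 and Dusp16 and the Sprouty genes Spry1 and Spry2. They were selected by symbol from the 53465 genes of the deposited table, with the summed count to decide between rows of 1 symbol. As 0 of the 10 symbols repeated, no measured value entered that step. The set was put together with earlier results of these data known, and its counts are therefore a description. All 10 were among the 15533 genes with enough counts to be tested.

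The study sequenced poly-A RNA of wild-type mouse bone marrow cells from a gate for LT-HSCs, the stem cells that keep up blood formation over the long term. One group of 3 libraries came from mice irradiated over the whole body with 5.0 Gy and then given carnosine, a natural dipeptide. The other group of 3 came from mice irradiated with the same dose and then given saline. The gate kept cells that lacked lineage markers, Flk2 and CD34 and carried Sca-1 and c-Kit. No group was left unirradiated. The sources used here give neither the strain, age and number of mice nor the carnosine dose and the time between radiation and sorting. The labels do not tie libraries to single mice, so p-values measure the spread between libraries, which may be technical. Whether a lower level reflects fewer cells that carry a transcript or less of it per cell cannot be told apart in bulk RNA.

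Growth factor and cytokine receptors switch on RAS and a chain of kinases, RAF, MEK and ERK, while stress and inflammatory signals use the parallel JNK and p38 kinases. Active kinases drive transcription factors that raise, among other genes, those of their own phosphatases. A dual-specificity phosphatase removes phosphate from both the threonine and the tyrosine of a MAP kinase, which turns the kinase off, whereas Sprouty proteins act further up, between the receptor and RAF. In blood stem and progenitor cells the pathway lies downstream of receptors such as Kit.

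The total count per library was 12730837 to 13651553 with carnosine and 12602067 to 16866534 with saline. Of all tested genes, 39.4% were called, 19.6% as higher and 19.8% as lower with carnosine, at a Benjamini-Hochberg adjusted p under 0.05 in edgeR's quasi-likelihood test. The libraries of the groups did not overlap for 52.3% of tested genes. Stem cell markers were present, but 6 of the 11 tested were lower and 1, Kit, was higher with carnosine, and the list summed to 634 to 655 CPM with carnosine, against 754 to 769 CPM with saline (CPM: counts scaled to library size, with TMM to correct for library composition). The excluded surface markers Cd34 and Flt3 were themselves abundant as transcripts, at 301 and 179.9 CPM with carnosine and 328.5 and 210.3 CPM with saline, so the label names the gate. Markers of other cells moved between the groups. Of the 11 myeloid progenitor and neutrophil genes 7 were higher and 3 lower with carnosine, and they summed to 7541 to 7777 CPM with carnosine and 3668 to 3701 CPM with saline. All 7 tested of 9 megakaryocyte genes were lower with carnosine, and the 9 summed to 160.3 to 167 CPM with carnosine and 394 to 419 CPM with saline, with Gp6 at 0 in every library. Of 10 erythroid genes 6 were higher and 1 lower, with a sum of 1279 to 1344 CPM with carnosine and 1102 to 1151 CPM with saline. Of 7 mast cell and basophil genes 6 were lower and 0 higher, with a sum of 121 to 128 CPM with carnosine and 231 to 247 CPM with saline. Of 5 tested endothelial and stromal genes 4 were lower and 0 higher, and the 9 listed summed to 115 to 123 CPM with carnosine and 141 to 153 CPM with saline. Of 7 plasma cell genes 4 were higher and 0 lower, with an uneven sum of 496.9 to 797.4 CPM with carnosine and 475.2 to 483.5 CPM with saline. Among them Jchain, named after its values were seen, had 584.2, 575.6 and 281.4 CPM with carnosine. With saline it had 314, 323.6 and 327.6 CPM, and it did not pass the test (edgeR adjusted p = 0.11). Of 6 tested T and NK cell genes 4 were higher and 2 lower. Of 6 tested monocyte and macrophage genes 1 was higher and 2 lower, and of 8 B cell genes 0 and 1. The part of these shifts in the results that follow was not tested.

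Of the 10 brakes, 9 fell with carnosine and 1, Dusp7, did not pass the test. Among all tested genes 19.8% were called lower. The median log2 fold change of the 10 was -0.87, against -0.0001 over all tested genes. Among them 3 fell by at least 2-fold, Dusp4, Dusp5 and Spry1, which 3.53% of tested genes did. Summed over the 10 genes the level was 469 ± 10.1 CPM with carnosine and 831 ± 11.4 CPM with saline (SD, n = 3 each). For the 9 that fell, every carnosine library lay below every saline library. Groups without overlap, in either direction, were seen for 52.3% of all tested genes.

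**Figure D1:**
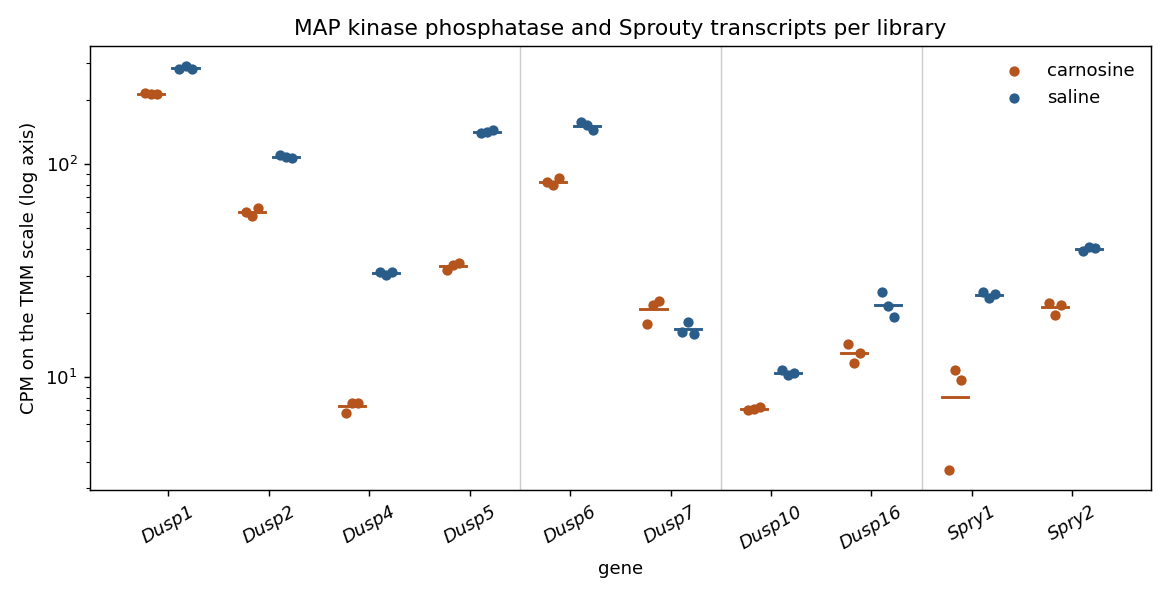
Levels of the 10 genes in each library, in CPM on a log axis, with carnosine libraries left of saline libraries for each gene and a line at the mean of 3. The groups are apart for 9 genes and overlap for Dusp7, and carnosine replicate 1 sits well below the other carnosine libraries for Spry1.

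The stretches upstream of Dusp5 and Dusp1 are shown first, since these nuclear phosphatases had the largest and the smallest of the called falls, and those of Dusp6 and Dusp7 next, since these close relatives differed in sign. They are RefSeq sequences of GRCm38.p6, read 5′ to 3′ on the gene's strand, and end at the base before the locus that the deposited table gives. Capitals mark matches to the motifs described after them.
Dusp5 (chr19:53528895-53529108, plus strand): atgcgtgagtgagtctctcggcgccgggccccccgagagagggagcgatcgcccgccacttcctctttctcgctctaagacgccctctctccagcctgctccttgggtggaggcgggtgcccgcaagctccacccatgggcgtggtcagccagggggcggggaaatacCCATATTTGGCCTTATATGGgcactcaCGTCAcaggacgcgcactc
Dusp1 (chr17:26508520-26508722, minus strand): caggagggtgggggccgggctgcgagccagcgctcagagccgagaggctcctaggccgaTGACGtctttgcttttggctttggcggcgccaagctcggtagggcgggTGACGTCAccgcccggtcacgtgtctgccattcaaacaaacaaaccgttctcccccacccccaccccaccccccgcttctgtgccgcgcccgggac
Dusp6 (chr10:99262981-99263230, plus strand): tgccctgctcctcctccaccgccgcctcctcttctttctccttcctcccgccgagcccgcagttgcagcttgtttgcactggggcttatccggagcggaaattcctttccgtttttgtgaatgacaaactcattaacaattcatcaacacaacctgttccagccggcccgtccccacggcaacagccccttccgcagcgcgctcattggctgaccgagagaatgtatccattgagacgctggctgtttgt
Dusp7 (chr9:106368382-106368631, plus strand): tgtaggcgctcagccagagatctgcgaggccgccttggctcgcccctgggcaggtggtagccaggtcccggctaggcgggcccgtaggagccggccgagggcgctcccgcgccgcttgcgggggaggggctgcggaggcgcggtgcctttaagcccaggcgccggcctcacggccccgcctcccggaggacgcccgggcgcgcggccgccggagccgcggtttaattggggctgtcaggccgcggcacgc

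Motifs were searched on both strands of the 250 bases before the RefSeq start, which 9 of the 10 genes have in the table; Dusp4 has no entry. The RefSeq starts of Dusp1, Dusp5 and Dusp10 lie inside their deposited loci. The stretches shown for Dusp1 and Dusp5 therefore end 47 and 36 bases short of the RefSeq start, from which the positions below are counted. Dusp5 held a pair of adjacent serum response element (CArG box) matches, at 82 to 73 and at 72 to 63 bases before its start, and 1.47% of all 32851 promoters held at least 1. Dusp1 held the palindromic cyclic AMP response element TGACGTCA at 143 to 136 bases before its start, which 1.55% of promoters held. The shorter element TGACG, which the palindrome contains on each strand, occurred in 3 of the 9 (Dusp1, Dusp5 and Dusp16) and in 17.8% of all promoters. The AP-1 site TGANTCA (in 6.75% of promoters), the ETS motif CCGGAA (12%) and the EGR site GCGTGGG (4.3%) occurred in 0 of the 9. The ETS search took the full CCGGAA only, and the shorter GGAA stands in the Dusp5 and Dusp6 stretches shown. These matches describe letters in a window and show nothing of a factor's binding.

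Among the nuclear phosphatases, the fall ran from slight for Dusp1 to about 4-fold for Dusp4 and Dusp5. Dusp5 (ENSMUSG00000034765, chromosome 19, 53529109 to 53542431, GRCm38), which acts on ERK alone, stood at 32.0, 33.5 and 34.4 CPM in the carnosine libraries. It stood at 140.5, 141 and 144 CPM in the saline libraries. The groups lay far apart, with carnosine libraries within a few CPM of each other. The log2 fold change was -2.09 ± 0.0412 (SE; edgeR adjusted p = 1.7e-07), and 0.747% of tested genes had a lower one.

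Dusp4 (ENSMUSG00000031530, chromosome 8, 34807297 to 34819894), an ERK and JNK phosphatase of the nucleus, had 6.76, 7.57 and 7.57 CPM with carnosine, against 31.0, 30.3 and 31.1 CPM with saline. Its log2 fold change of -2.08 ± 0.0719 (SE; edgeR adjusted p = 1.7e-06) was close to that of Dusp5. No carnosine library came near a saline library. The carnosine values rest on 94, 105 and 98 counts and the saline values on 512, 467 and 383.

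Dusp2 (ENSMUSG00000027368, chromosome 2, 127336159 to 127338376), first known from activated lymphocytes, had 59.8, 57.0 and 62.4 CPM with carnosine. With saline it had 111.0, 109 and 107 CPM. Its groups did not overlap, and the log2 fold change was -0.87 ± 0.0446 (SE; edgeR adjusted p = 1.1e-05).

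Dusp1 (ENSMUSG00000024190, chromosome 17, 26505590 to 26508519), an early-induced phosphatase of p38, JNK and ERK, was the most abundant of the 10 by counts. It stood at 215.6, 215.0 and 215.2 CPM with carnosine and at 280.3, 289.6 and 280.1 CPM with saline. The carnosine libraries were almost equal, and all lay below the saline ones. The log2 fold change of -0.40 ± 0.0244 (SE; edgeR adjusted p = 2.7e-05) was the smallest of the called falls, and 14.6% of tested genes had a lower one.

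Because Dusp1 fell least of the 9, the balance among the phosphatases shifted, a comparison within a library that no scaling between libraries touches. Counts of Dusp5 were 14.8, 15.6 and 16.0% of those of Dusp1 with carnosine, against 50.1, 48.9 and 51.5% with saline. Counts of Dusp4 were 3.14, 3.52 and 3.52% of those of Dusp1 with carnosine and 11.1, 10.5 and 11.1% with saline. The share of Dusp1 in the summed level of the 10 was 45.95 ± 0.995% with carnosine and 34.1 ± 0.557% with saline (SD, n = 3 each).

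Of the cytoplasmic ERK phosphatases, Dusp6 fell and Dusp7 did not pass the test. Dusp6 (ENSMUSG00000019960, chromosome 10, 99263231 to 99267489), a widely used readout of ERK activity, had 82.4, 80.2 and 86.0 CPM with carnosine and 158, 153 and 145 CPM with saline. The groups did not overlap, and the log2 fold change was -0.88 ± 0.0451 (SE; edgeR adjusted p = 1.1e-05).

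Dusp7 (ENSMUSG00000053716, chromosome 9, 106368632 to 106375724), its closest relative in this set, had 17.8, 21.9 and 22.7 CPM with carnosine. With saline it had 16.4, 18.1 and 16.0 CPM. Carnosine replicate 1 lay within the range of the saline libraries, while the other carnosine libraries were above it. The log2 fold change of 0.30 ± 0.108 (SE) missed the threshold (edgeR adjusted p = 0.061), and without carnosine replicate 1 it was 0.41 and passed with an adjusted p of 0.013 (its other settings gave up to 0.16). Within a library, counts of Dusp7 were 8.24, 10.2 and 10.6% of those of Dusp1 with carnosine and 5.84, 6.25 and 5.71% with saline.

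**Figure D2:**
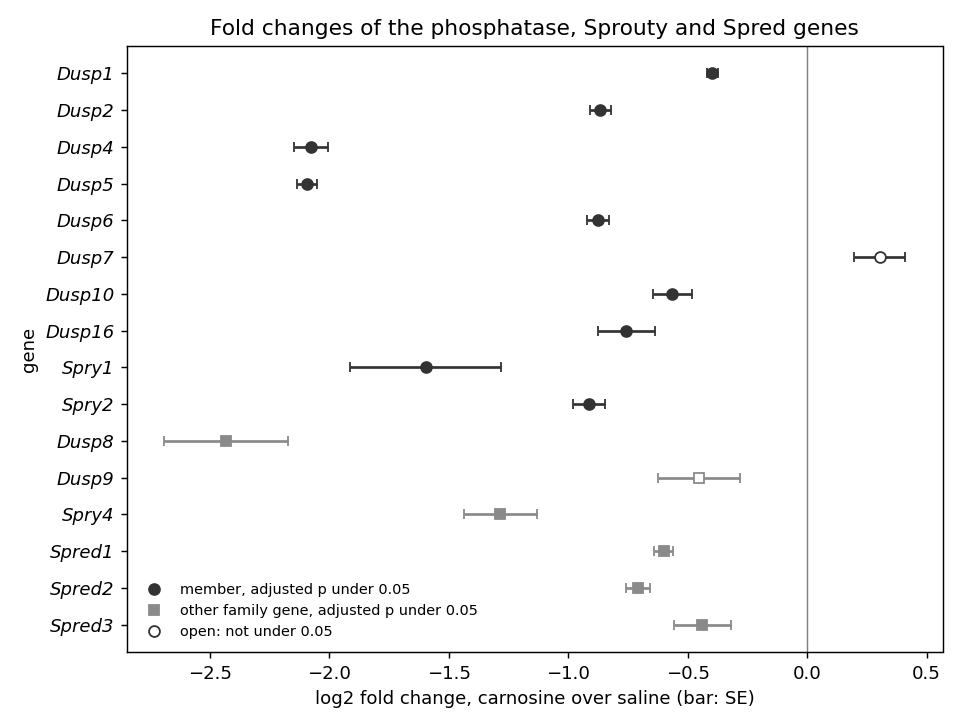
Log2 fold changes of carnosine over saline with their SE, for the 10 genes (circles) and Dusp8, Dusp9, Spry4, Spred1, Spred2 and Spred3 (squares), filled where the adjusted p is under 0.05. Dusp8, Dusp5 and Dusp4 lie furthest to the left, and of these 16 genes Dusp7 alone lies to the right of 0.

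Both phosphatases that act mainly on the stress kinases fell. Dusp10 (ENSMUSG00000039384, chromosome 1, 184013302 to 184075636), which acts on JNK and p38, had 6.97, 7.06 and 7.26 CPM with carnosine, against 10.9, 10.3 and 10.4 CPM with saline. Its log2 fold change was -0.57 ± 0.0816 (SE; edgeR adjusted p = 0.0015). Although counts were low, at 94 to 98 per carnosine library, the groups did not overlap.

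Dusp16 (ENSMUSG00000030203, chromosome 6, 134715468 to 134792625), a JNK phosphatase that shuttles between nucleus and cytoplasm, had 14.2, 11.7 and 13.1 CPM with carnosine and 25.03, 21.6 and 19.1 CPM with saline. Its saline libraries were more spread than those of any other gene of the 10, with a coefficient of variation of 13.6%. The log2 fold change was -0.76 ± 0.121 (SE; edgeR adjusted p = 0.0025).

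Both Sprouty genes fell, Spry2 evenly and Spry1 unevenly. Spry2 (ENSMUSG00000022114, chromosome 14, 105891947 to 105896819), an inhibitor of receptor tyrosine kinase signalling, had 22.4, 19.6 and 21.9 CPM with carnosine and 39.0, 40.8 and 40.6 CPM with saline. The groups were apart, with a log2 fold change of -0.91 ± 0.0667 (SE; edgeR adjusted p = 6e-05).

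Spry1 (ENSMUSG00000037211, chromosome 3, 37639947 to 37644598), its relative with the same role, had 3.67, 10.8 and 9.73 CPM with carnosine, from 51, 150 and 126 counts. With saline it had 25.03, 23.6 and 24.5 CPM. Carnosine replicate 1 was far below the other carnosine libraries: its 95% Poisson interval of 2.73 to 4.82 CPM, which covers counting error only, stayed below theirs of 9.15 to 12.7 and 8.11 to 11.6 CPM. The coefficient of variation was 47.7% with carnosine and 3.06% with saline, and the log2 fold change was -1.60 ± 0.316 (SE; edgeR adjusted p = 0.0065). Without carnosine replicate 1 it was -1.25, with an adjusted p of 2e-04 (range 7e-07 to 0.022 over its alternatives).

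Overlapping genes could add reads where counting ignored strand, which is not stated. In GENCODE M21, 1700056E22Rik overlaps Dusp10, Gm36328 overlaps Dusp16, Gm42922 overlaps Spry1 and AC137853.2 overlaps Dusp5, each on the opposite strand. The first 3 had 45, 5 and 75 counts in all 6 libraries together, low beside the members' own over the same libraries. In single libraries the gap was smaller. Gm42922 had 11 counts in carnosine replicate 1, against 51 for Spry1. 1700056E22Rik had 10 in carnosine replicate 3, against 94 for Dusp10. AC137853.2 was not analysed here.

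The order of the 10 levels, which needs a scale per length, depended on that length. By the deposited FPKM (fragments per kilobase, scaled to library size), Dusp1 led with carnosine at 42.6 ± 0.0752, before Dusp2 at 25.6 ± 1.14, Dusp6 at 14.2 ± 0.493 and Dusp5 at 13.7 ± 0.484 (SD, n = 3). The means of Dusp6 and Dusp5 differed by less than their summed SDs. With saline, Dusp5 led at 56.2 ± 0.733 FPKM, before Dusp1 at 53.9 ± 1.13 and Dusp2 at 44.9 ± 0.871. Dusp16 was last in both groups, at 1.02 ± 0.101 FPKM with carnosine and 1.65 ± 0.226 FPKM with saline.

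The length behind those values counts overlapping exons more than once. Among 10699 genes whose mean count was 100 or more, for 89.4% it equals, within 1%, the summed lengths of all distinct GENCODE M21 exons. For Dusp5, which has 1 transcript, it came to 2473 bases by both. For Dusp1 the values imply 5142 bases, against 6107 bases of summed exons and a deposited locus of 2930 bases. Per kilobase of the longest transcript, a scale chosen after seeing the data, Dusp1 led in both groups, at 93.1 ± 0.115 CPM per kilobase with carnosine and 122.5 ± 2.34 with saline. Dusp5 then stood at 13.5 ± 0.486 with carnosine and 57.5 ± 0.811 with saline. The saline level of Dusp6, 54.4 ± 2.44, was within their summed SDs of it. Comparisons of 1 gene between groups do not depend on the length.

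**Figure D3:**
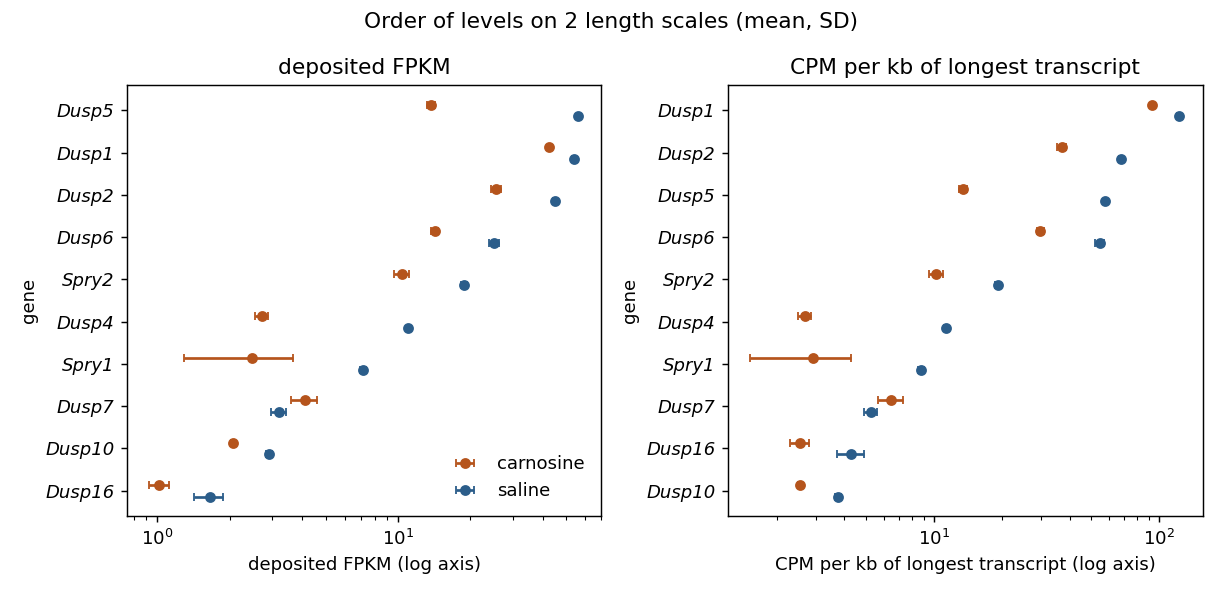
Mean levels with SD (n = 3) of the 10 genes on log axes, by the deposited FPKM on the left and as CPM per kilobase of the longest transcript on the right, each sorted by the saline mean, with carnosine above saline. Dusp5 leads in saline on the left scale and Dusp1 on the right scale.

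Further MAP kinase phosphatase, Sprouty and Spred genes that were called also fell. Of 7 such genes (Dusp8, Dusp9, Spry3, Spry4, Spred1, Spred2 and Spred3), 6 were tested, 5 fell and 0 rose, with a median log2 fold change of -0.65. Spred1 and Spred2, which hold back RAF activation, had 68.4 ± 1.85 and 43.1 ± 1.55 CPM with carnosine and 104 ± 2.84 and 70.5 ± 2.56 CPM with saline (SD, n = 3 each). Their log2 fold changes were -0.60 ± 0.0402 and -0.71 ± 0.0508 (SE). The other genes of this group are given although their values had been seen. Dusp8, a JNK and p38 phosphatase, had 7, 14 and 10 counts with carnosine and 80, 63 and 42 with saline (log2 fold change -2.43 ± 0.26, SE). Spry4 had 36, 52 and 39 counts with carnosine and 123, 111 and 101 with saline (-1.28 ± 0.152), and Spred3 fell by 0.44 on the log2 scale. Dusp9 was at 2.27 ± 0.381 CPM with carnosine and 3.12 ± 0.235 CPM with saline and did not pass (edgeR adjusted p = 0.072), and Spry3 had 0 counts in every library.

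Atypical dual-specificity phosphatases, which are smaller and lack the MAP kinase docking part, mostly did not pass the test. Of 8 tested, 1 fell (Dusp3, log2 fold change -1.30 ± 0.159, SE) and 1 rose (Dusp12, 0.43 ± 0.126), with a median of -0.14. Without carnosine replicate 1 or 2, or saline replicate 2 or 3, 0 of the 8 were called higher, so the rise of Dusp12 was lost. Of 17 other negative regulators of receptor, RAS and ERK signalling, 4 fell and 2 rose, with a median of -0.01. They include the adaptor Dok2, at 17.8 ± 2.6 CPM with carnosine and 33.6 ± 1.74 CPM with saline, and the ubiquitin ligase Cblb (-0.36 ± 0.0461).

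Transcripts of the kinases that the brakes act on changed little. In the RAF-MEK-ERK cascade 3 of 12 tested genes fell and 2 rose, and the median log2 fold change was 0.06. Those that fell include the scaffold Ksr1 and the MEK gene Map2k2, at -0.52 and -0.17, and those that rose include the scaffold Shoc2, at 0.12. Without carnosine replicate 1 or 2, or saline replicate 1 or 2, 3 of the 12 were called, against 5. Both rises, that of Shoc2 included, were lost without carnosine replicate 1 or 2 or saline replicate 2. Shoc2 and Mapk3 are named although their values had been seen. Mapk3, which encodes ERK1, was at 64.6 ± 3.9 CPM with carnosine and 60.0 ± 2.39 CPM with saline and did not pass the test (edgeR adjusted p = 0.20). These are transcript levels, and kinase activity was not measured.

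Of 21 adaptor and RAS genes, 6 fell and 3 rose (median -0.11). The small GTPase Rap1b fell to 239.7 ± 3.46 CPM with carnosine, against 352 ± 2.31 CPM with saline, and the RAS activator Rasgrp3 rose (log2 fold change 1.25 ± 0.0997, SE). In the JNK and p38 cascades 9 of 25 fell and 4 rose (median -0.18). The stress sensor Gadd45b, which binds JNK pathway kinases, had 27.8 ± 1.36 CPM with carnosine and 68.5 ± 0.749 CPM with saline, and the adaptor Traf6 fell by 0.41 on the log2 scale. Of 21 downstream kinases and transcription factors, 8 fell and 5 rose (median -0.07). Rps6ka1, which encodes an ERK-activated ribosomal S6 kinase, rose (0.51 ± 0.0346), while the ERK-regulated transcription factor Ets2 fell (-0.96 ± 0.0612).

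Upstream, 7 of 10 tested ligands fell and 0 rose (median -0.84), while 8 of 18 receptors fell and 5 rose (median -0.14). Angiopoietin 1 (Angpt1) had 119 ± 3.22 CPM with carnosine and 233 ± 4.22 CPM with saline, and its receptor Tek had 10.6 ± 1.16 CPM with carnosine and 35.2 ± 2.23 CPM with saline. Vegfa, a growth factor of blood vessels, had 30.4 ± 1.1 CPM with carnosine and 106 ± 6.83 CPM with saline. The granulocyte receptor Csf3r rose (log2 fold change 0.92 ± 0.0413, SE). The myeloid, megakaryocyte and endothelial marker sums that also moved are given above, and their part was not tested.

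Of 12 tested genes of ERK output outside the 10, 7 fell and 1 rose (Myc, named although its value had been seen, at 0.68), with a median of -1.41. The other 4, Ccnd1, Emp1, Etv4 and Etv5, did not pass the test and are named after their values were seen. Phlda1, a pleckstrin homology domain gene, had 8.07 ± 0.528 CPM with carnosine and 44.3 ± 2.11 CPM with saline. The AP-1 partner Maff and the stress kinase gene Plk3 had log2 fold changes of -2.08 ± 0.0635 and -1.63 ± 0.05 (SE). All 19 immediate early genes outside the 10 fell (median -1.14), with Nr4a1 at -2.46, Egr1 at -1.42 and Fosl2 at -3.10.

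**Figure D4:**
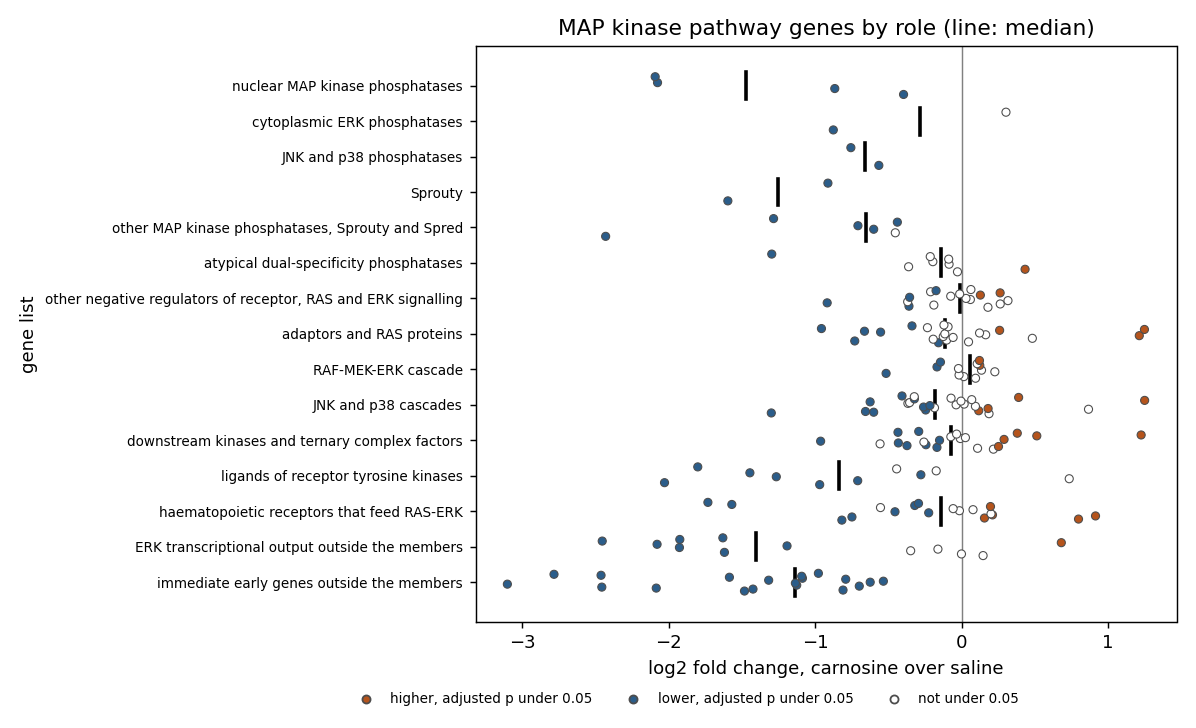
Log2 fold changes of carnosine over saline for the tested genes of each list, 1 point a gene, orange where higher, blue where lower and white where not under an adjusted p of 0.05, with a black line at each list's median. The ligand, ERK output and immediate early lists have medians of -0.84, -1.41 and -1.14. The medians of the atypical phosphatase, kinase and adaptor lists lie between -0.18 and 0.06, while their single genes run from -1.30 to 1.25.

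For 3 of the 10 the nearest profiles were looked up among 4869 other genes of at least 50 CPM, as the smallest root mean square difference of centred log2 CPM over the 6 libraries. Nearest to Dusp1 were Rlim (0.0151), AI504432 (0.0167), Actg1 (0.0214), Srebf2 (0.0215) and Tfip11 (0.0215). Nearest to Dusp6 were Gata2 (0.0360), Icam1 (0.0386), Dnajb1 (0.0400), Pnrc1 (0.0411) and Jund (0.0435). Nearest to Spry1 were Apoe (0.387), Ptgs2 (0.407), Skil (0.409), Klf10 (0.414) and Chd2 (0.414), about 10 times as far as the neighbours of Dusp6. Like Spry1, all 5 were lowest in carnosine replicate 1, where Chd2 had 86.0 CPM, against 134 and 131 CPM in the other carnosine libraries. The search used these same libraries and so favours genes that share this low value, which is therefore not a separate observation. Klf10 was almost as low in carnosine replicate 3.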

How the data were processed

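Stranded paired-end poly-A libraries were sequenced on an Illumina instrument, per the labels' protocols. CASAVA 1.8, HISAT2, StringTie, edgeR and build GRCm38 are named without roles in the submitters' processing notes. The sources used here do not say how counting used annotation, strand and shared reads. The deposited table holds whole-number counts and FPKM values per gene and library, per the file headers. Every per-sample column was used, with groups from the sample titles.

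The test was that of edgeR 4.0.16 (R 4.3.3): filterByExpr, which left 15533 genes with 99.8% of counts, TMM scaling and the quasi-likelihood F-test without covariates, with Benjamini-Hochberg adjustment over all tested genes at 0.05. CPM levels use TMM-scaled library sizes. An SE is the absolute log2 fold change over the square root of F. The procedure was tested on simulated counts. Libraries of a group differed by 1.74 to 2.03 times sampling noise, so none were counted as duplicates. The 10 members and the gene lists were chosen with earlier results of these data known. Named genes outside the members were those with the smallest p-values per list, 25 in all, except where stated; some are not reported here. The lists were described by counts and medians, without a set test. Alternatives were other scalings and filters, DESeq2 1.42.0, limma-voom and limma-trend (limma 3.58.1) on log2(FPKM + 1) or log2(FPKM + 0.1), the replicate block and each library left out. A length scale was added after seeing the data.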

Additional observations from a re-analysis of the deposited data

How the results depend on the processing

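The 9 falls kept their direction and stayed under the threshold in all 15 other settings tried for each gene: other scalings and filters, DESeq2, limma-voom, limma-trend on FPKM, the replicate block and each library left out. Log2 fold changes then ran from -2.12 to -1.96 for Dusp5, -2.11 to -1.69 for Dusp4, -0.41 to -0.33 for Dusp1 and -1.87 to -1.25 for Spry1. Limma-trend on log2(FPKM + 1), a scale that shrinks changes of low genes, gave -0.39 for Dusp16, against -0.76, and -0.36 for Dusp10, against -0.57. Dusp7 stayed above 0 and passed in 3 of its 15, with an adjusted p of 0.047 and 0.046 in limma-trend with a pseudocount of 1 and 0.1, and 0.013 without carnosine replicate 1. The number of genes called over the whole table was 4450 to 6175, against 6115, and 5082 to 5317 with a library left out. Limma-trend on log2(FPKM + 1) split the calls into 3387 higher and 2156 lower, against 3038 and 3077. The median log2 fold change over all genes was 0.051 in limma-trend with a pseudocount of 1 and 0.059 with 0.1. It was -0.0001 in the main edgeR test. Replicate numbers did not pair the libraries (correlations of same-numbered deviations from 0.00791 to 0.0268), although each library correlated best with its own number, a hint from the data and not the design. With the replicate block 9 members and 5231 genes were called, and in the RAF-MEK-ERK cascade 3 genes, against 5. Under the block 0 genes of that cascade and 0 atypical phosphatases were called higher, so the rises of Shoc2 and Dusp12 were lost. That cascade had 2 calls with DESeq2, with 0 higher, and 3 without carnosine replicate 1 or 2 or saline replicate 1 or 2. Calls among other negative regulators numbered 3 with DESeq2, against 6. The other Dusp, Sprouty and Spred genes had 3 calls among 5 tested with limma-trend, against 5 among 6. The cause of these moves was not tested. Few counts limit Dusp8, Dusp9, Spry4, Spred3, Dusp3, Dusp4, Dusp10, Spry1 and Phlda1, among others, which had at most 150 per carnosine library.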

Other observations

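Map2k3, which encodes a p38-activating kinase, was highest in replicate 3 among the carnosine libraries and averaged 65.5 ± 15.6 CPM with carnosine and 103 ± 4.26 CPM with saline (SD, n = 3 each). It was named after its values were seen. Its log2 fold change was -0.66 ± 0.147 (SE; edgeR adjusted p = 0.011).

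The promoter windows of the 9 genes with an entry were all richer in G and C than the median of 52.4% over all promoters, from 56.4% for Dusp6 to 77.2% for Dusp7.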
